A study of Mus musculus with 144 samples.

Results

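Translation initiation factor genes were taken from a study of mouse liver RNA as every gene whose symbol begins with Eif followed by a digit from 1 to 6, with symbols ending in -ps left out. The rule found 56 genes among the 51912 of the raw count table, and 7 -ps symbols were set aside. The counts came from QuantSeq, a 3′ mRNA sequencing assay in which reads come from where transcripts end at the poly(A) tail, whatever their length. RNA came from livers of male C57BL/6J mice under a 12 h light, 12 h dark schedule and fed without restriction, and the labels give no age. Wild-type mice gave total RNA, nuclear RNA and polysomal RNA, which is RNA carried by groups of ribosomes, and Bmal1-/- mice, which lack a core activator of the circadian clock, gave total RNA. Each of these 4 series held 36 libraries, 6 for each of the zeitgeber times (ZT, counted in hours from lights on) ZT2, ZT6, ZT10, ZT14, ZT18 and ZT22. The labels do not say which part of Bmal1 was altered, or whether the fractions of the same number came from 1 animal. They number the replicates without saying that each is a separate mouse, so p-values measure the spread between these libraries.

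Initiation factors bring the ribosome, the initiator tRNA and the mRNA together and find the start codon. The eIF2 complex carries the initiator tRNA, eIF2B recharges eIF2 with GTP, and 4 kinases (Eif2ak1, Eif2ak2, Eif2ak3 and Eif2ak4) slow both by phosphorylating the alpha subunit of eIF2. The eIF3 complex binds the small ribosomal subunit, while eIF4F, made of the cap-binding protein Eif4e, a scaffold of the Eif4g family and an RNA helicase of the Eif4a family, binds the capped end of the mRNA. The repressors Eif4ebp1, Eif4ebp2 and Eif4ebp3 hold Eif4e away from the scaffold until the kinase mTOR phosphorylates them. In liver, feeding and the clock are both known to act on this pathway. By these roles the members fell into 7 genes of start codon selection and subunit joining, 4 of eIF2, 5 of eIF2B, 4 eIF2 kinases, 2 other tRNA carriers, 14 of eIF3, 11 of eIF4F and its helpers, the exon junction helicase Eif4a3, 4 repressors, 3 of the eIF5A and eIF6 kind, and Eif2c5, which has none of these roles.

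Start regions of 44 members were found in RefSeq's promoter table (GRCm38.p6, 250 bases before to 50 after each annotated start) and 12 had no entry. The E-box CACGTG, the binding motif of BMAL1 with its partner CLOCK, was searched on both strands, where it reads the same, and lay in the windows of 10 members, 22.7% against 8.09% of all 27025 genes with a window. These sequences are shown because the text returns to Eif1b, Eif3f, Eif4a1 and Eif5a for their daily cycles and to Eif4e as the cap-binding protein. Each is 30 bases on the strand of its gene, 5′ to 3′, with the motif in capitals. The first lies at chr9:120492570-120492599, the others at chr7:108934335-108934364, chr11:69672595-69672624, chr11:69921443-69921472 and chr3:138527192-138527221, in that order.
Eif1b: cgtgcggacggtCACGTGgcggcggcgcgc
Eif3f: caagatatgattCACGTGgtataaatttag
Eif4a1: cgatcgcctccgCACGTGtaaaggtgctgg
Eif5a: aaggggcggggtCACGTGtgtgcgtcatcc
Eif4e: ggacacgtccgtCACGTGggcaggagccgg
The other members with an E-box in the window were Eif3a, Eif3k, Eif4g1, Eif4h and Eif5a2. The D-box TTATGTAA, searched on both strands, lay in 0 member windows and in 1.11% of all windows. A match is a string of letters in a window and not a measured binding site.

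Transcripts that begin with a 5′ terminal oligopyrimidine run (TOP), as those of ribosomal proteins do, are known to be translated under control of mTOR. A C within 3 bases of the annotated start followed by at least 4 pyrimidines, read on the gene's own strand, stood in 10 of the 44 members with a window, 22.7% against 13.5% of all genes. The 4 longest of these runs among the tested members are shown with the run in capitals, in the order chr7:108934400-108934429, chrX:94212637-94212666, chrY:1010580-1010609 and chr2:118389097-118389126.
Eif3f: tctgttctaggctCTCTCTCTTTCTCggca
Eif2s3x: ctgccgagcattttCCTTTTCTCTCCgagc
Eif2s3y: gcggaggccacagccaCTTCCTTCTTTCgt
Eif2ak4: ttcgtccttccaaccattCTTCCCCacact
The other members with such a run were Eif1ad, Eif2b5, Eif2c5, Eif3b, Eif3l and Eif4g1. Among members with a TOP run that were tested, polysomal levels relative to total RNA ran from −1.37 (Eif4g1) to 0.88 (Eif2b5) on the log2 scale, so the run did not go with 1 direction.

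Library totals were 5316601 to 9831142 counts (total RNA), 1662449 to 6620128 (nuclear), 2578048 to 13068044 (polysomal) and 4379549 to 14281894 (Bmal1-/-). Hepatocyte markers led in every series, with a median summed level of 67359 CPM (counts scaled to library size after normalisation by the trimmed mean of M values) in total RNA and 30384 CPM in polysomal RNA. Erythroid markers were higher in polysomal RNA (median 3811 CPM) than in total RNA (1251 CPM), and the sum of 2 lung markers, with a median of 0 in the other series, had a median of 292 CPM in the polysomal libraries of replicate 1 against 0.164 CPM in the other polysomal libraries. Pancreas markers reached 885 CPM in 1 polysomal library. The part of these cells in the polysomal results was not tested. Bmal1 itself (Arntl) was not lower in Bmal1-/- libraries (4.94 to 16.7 CPM, against 0.263 to 20.4 CPM in wild type), but a 3′ end outside the altered part checks nothing. Its targets Dbp and Nr1d1 peaked at 143 and 52.3 CPM in wild-type total RNA and reached no more than 4.64 and 2.4 CPM in Bmal1-/- RNA. Total RNA at ZT2, replicate 4, stood apart, with a median correlation to its series of 0.827 against at least 0.917 for the others. In 4 libraries, 1 in each series and all at ZT22, the X-inactivation transcript Xist exceeded 100 CPM, although the labels call all mice male. They were replicate 5 of total and of nuclear RNA, replicate 1 of polysomal RNA and replicate 6 of Bmal1-/- RNA.

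Of the 56 members, 53 passed a minimum mean of 10 counts per library in each comparison of series. Eif4e1b had no count in any library, and Eif2c5 and Eif5a2 stayed below 1 CPM in each. Series were compared at matched zeitgeber times, averaged over the 6 times, with edgeR's quasi-likelihood test, and a gene was called at a Benjamini-Hochberg adjusted p under 0.05 over all genes tested. Values are of transcript ends and are not compared between genes, and in bulk RNA fewer cells of a type and less RNA per cell cannot be told apart.

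In nuclear RNA most initiation factor transcripts were scarcer than in total RNA. Of 53 members 15 were higher and 35 lower, against a background of 83.8% of all 11864 genes called, 41.6% higher and 42.1% lower. The median difference of the members was −0.71 on the log2 scale, and that of all genes was −0.01. All 4 genes of eIF2 were lower, as were 12 of 14 genes of eIF3, 6 of 7 genes of start codon selection and the exon junction helicase Eif4a3. In eIF2B, by contrast, Eif2b2, Eif2b3, Eif2b4 and Eif2b5 were 0.55 to 0.86 higher and only the alpha subunit Eif2b1 was lower. The eIF2 kinases and the repressors were each split into 2 higher and 2 lower, and eIF4F into 4 higher and 5 lower. Eif2b1 (9.25 counts on average) and Eif3m (8.58) were under the minimum in the nuclear libraries themselves and passed it through total RNA.

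**Figure D1:**
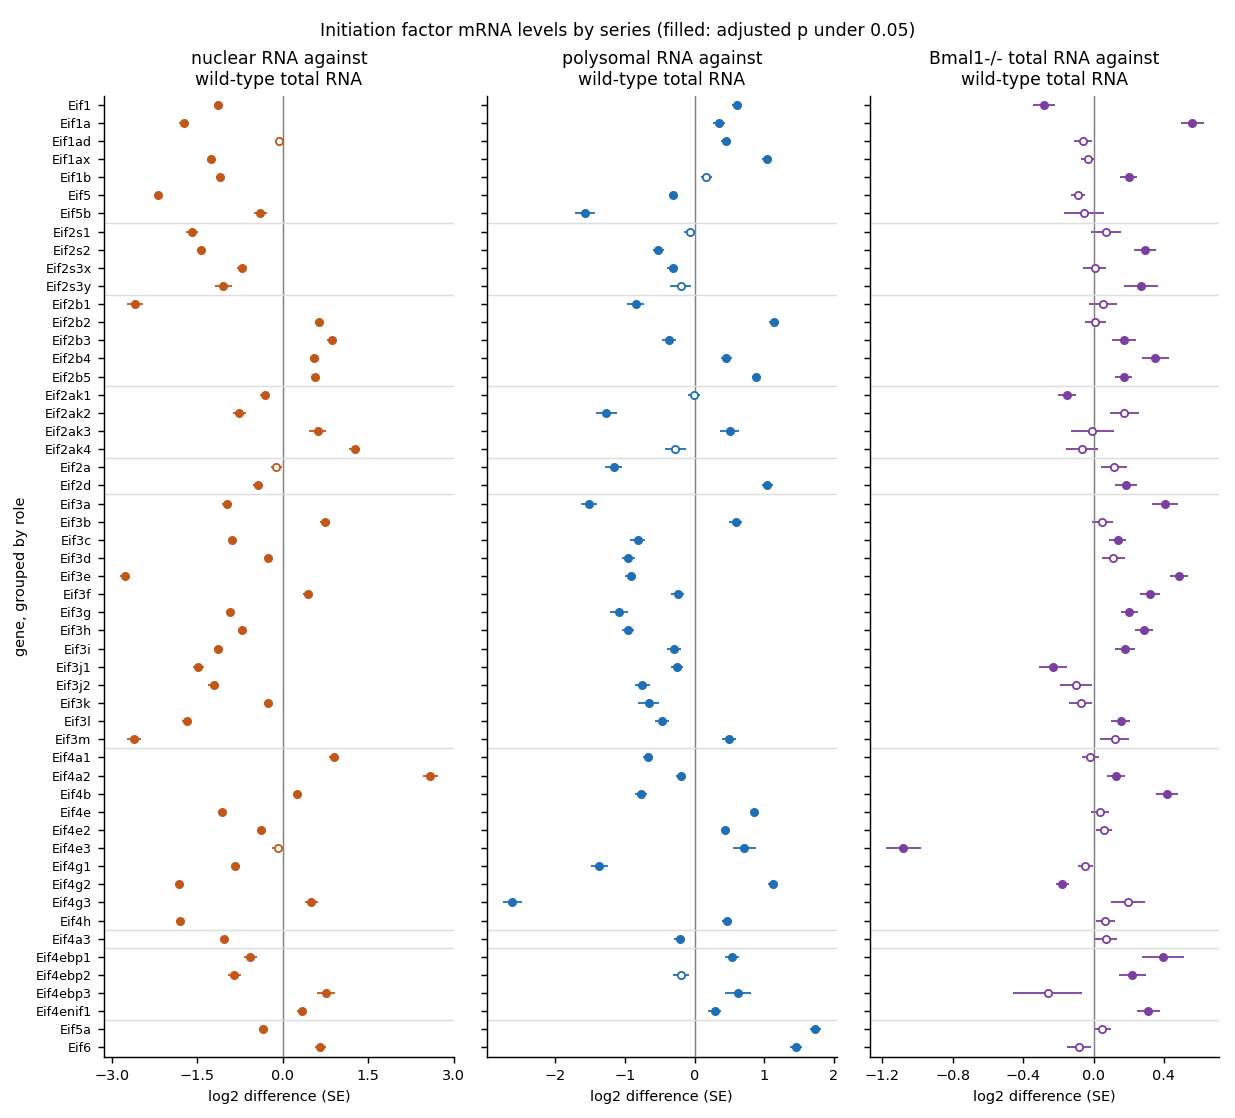
Difference of each tested member from wild-type total RNA on the log2 scale (horizontal axis, error bars SE), grouped by role in the order start codon, eIF2, eIF2B, eIF2 kinases, other carriers, eIF3, eIF4F, Eif4a3, repressors, eIF5A and eIF6. Filled points passed an adjusted p of 0.05, and the horizontal scales differ between the panels. In nuclear RNA 35 called members lie to the left, and in Bmal1-/- RNA 21 of 26 called members lie to the right.

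Eif3e, a subunit of eIF3, had 40.1, 63.6 and 96.2 CPM (lowest, median and highest of 36 libraries) in total RNA and 4.77, 9.5 and 16.0 CPM in nuclear RNA, so that the series did not overlap. Its difference was −2.78 (SE 0.079, adjusted p = 1.47e-43), the largest among members. Eif3m, another eIF3 subunit, had 6.27, 12.1 and 20.0 CPM in total RNA and 0.361, 2.14 and 5.15 CPM in nuclear RNA, again without overlap (−2.61, SE 0.12, adjusted p = 1.25e-30). Eif2b1 followed at −2.59. Eif3m and Eif2b1 passed the count minimum only through total RNA, so their tests and the lack of overlap in Eif3m are not taken as support. Eif5, which makes eIF2 hydrolyse its GTP at the start codon, was 2.19 lower on the log2 scale, Eif4g2, a scaffold without a binding site for Eif4e, 1.82 lower, the helicase helper Eif4h 1.81 lower and Eif1a 1.74 lower. Each of these 7 was lower at all 6 times. Eif1a has the near-identical copy Eif1ax, and Eif3j1 the copy Eif3j2, so reads may have been split between them.

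Control genes of the pathway went both ways in nuclear RNA. The cap-binding Eif4e was lower (−1.06, SE 0.069), as were its repressors Eif4ebp1 (−0.57, SE 0.11) and Eif4ebp2 (−0.85, SE 0.12), whereas Eif4ebp3 was higher (0.76, SE 0.15, adjusted p = 8.00e-06). Among the eIF2 kinases, Eif2ak1 and Eif2ak2, known as the sensors of heme and of double-stranded RNA, were 0.31 and 0.76 lower on the log2 scale. Eif2ak3, the sensor of the endoplasmic reticulum, was 0.61 higher and Eif2ak4, the sensor of uncharged tRNA, 1.27 higher. All 8 of these genes passed the test.

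Eif4a2, one of the helicases of eIF4F, was the largest rise in nuclear RNA, and it came from inside the gene. It had 96.3, 126 and 156 CPM in total RNA and 221, 690 and 2662 CPM in nuclear RNA, without overlap (2.59, SE 0.13, adjusted p = 3.36e-29). Eif4a2 (chr16:23107468-23114132, GRCm38) contains small nucleolar RNA genes, among them Snora81 at chr16:23110770-23110933. A polyadenylation site at chr16:23110817-23110847 inside Snora81, 3349 bp from the gene start, held 31.2% ± 9.32 (SD, n = 36) of the gene's site counts in total RNA and 83.5% ± 6.76 in nuclear RNA. The site nearest the gene end, at chr16:23113746-23113952, held 63.1% ± 10.2 in total, 5.64% ± 2.90 in nuclear and 94.1% ± 3.71 in polysomal RNA. Counted only from sites within 1000 bp of the gene end, an alternative chosen after seeing the data, Eif4a2 was lower in nuclear RNA (−0.77, SE 0.090, adjusted p = 3.33e-12).

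The same restriction left 37 members to test, of which 11 were higher and 21 lower in nuclear RNA, with 83.2% of all 6714 genes tested in this way called, 41.8% higher and 41.4% lower. The eIF3 genes did not stay on the lower side. Of the 10 tested from these sites, 4 were lower (Eif3g, Eif3j1, Eif3l and Eif3m), 3 were higher (Eif3a, Eif3b and Eif3f) and 3 did not pass (Eif3c, Eif3d and Eif3k). Eif2ak1 and Eif5a were not called from these sites either. Eif1a was at −0.79 and Eif2s3x at −1.53. The restriction also turned Eif3a from −0.98 to 0.37, Eif4g1 from −0.83 to 0.59, Eif2b3 from 0.86 to −0.31, Eif4g3 from 0.50 to −0.88 and Eif4a1 from 0.90 to −0.21, with a call on both sides in each. For Eif4a2 and these 5 genes the nuclear difference of the whole gene thus depended on which counts were used. In Eif4g3 and Eif4a1 100% of the site counts lay near the gene end, but the sites held only 0.535 and 0.719 of the gene counts. For these genes the restriction left out no assigned site, only counts outside the assigned sites.

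Between polysomal and total RNA 47 of 53 members differed, 21 higher and 26 lower, where 76.1% of all 11556 genes were called, 38.4% higher and 37.6% lower. The median difference was −0.20 for members and 0.01 for all genes. The eIF3 complex stood on the lower side with 12 of 14 genes, all but Eif3b (0.59) and Eif3m (0.49). Of these, Eif3f, Eif3i, Eif3j1 and Eif3k were not called within replicates 1 to 3, nor Eif3b within replicates 4 to 6. Of the 47 calls, 38 were also made within replicates 1 to 3 and 43 within replicates 4 to 6. Eif5a and Eif6 were both higher, as were 4 of 7 genes of start codon selection and 3 of 4 repressors, and eIF4F was split into 5 higher and 5 lower. Eif2s1 and Eif2s3y, both of eIF2, did not pass the test (−0.07 and −0.20).

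Eif4g3, a scaffold of eIF4F, had 18.1, 31.1 and 87.9 CPM in total RNA and 1.48, 5.60 and 11.9 CPM in polysomal RNA. The series did not overlap and the difference was −2.62 (SE 0.14, adjusted p = 8.94e-28). Its sister Eif4g1 was also lower (−1.37, SE 0.12), while Eif4g2, the scaffold that does not bind Eif4e, was higher (1.12, SE 0.060). Eif5a, which helps ribosomes through difficult peptide bonds, had 152, 200 and 354 CPM in total RNA and 346, 695 and 1242 CPM in polysomal RNA, with overlap at the edges (1.73, SE 0.078, adjusted p = 1.36e-31). Eif5b, which joins the ribosomal subunits, had 38.0, 95.1 and 191 CPM in total RNA and 9.45, 29.8 and 62.7 CPM in polysomal RNA, with overlap (−1.58, SE 0.14, adjusted p = 5.74e-16).

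Eif6, which keeps the large ribosomal subunit from joining, was 1.45 higher (SE 0.081) and the eIF2B subunit Eif2b2 1.14 higher (SE 0.078). The largest eIF3 subunit Eif3a was 1.52 lower on the log2 scale (SE 0.11), and Eif2a, an alternative tRNA carrier, 1.16 lower (SE 0.13). Neither was called from sites near the gene end, where Eif2a was at −0.13 (SE 0.23, adjusted p = 0.609) and Eif3a at −0.01 (SE 0.11, adjusted p = 0.951). The last site of Eif3a rose from 22.3% ± 4.85 of site counts in total RNA to 60.6% ± 7.56 in polysomal RNA. With only sites near gene ends 16 of 38 members were higher and 16 lower in polysomal RNA, where 74.6% of all 6874 genes tested in this way were called, 37.9% higher and 36.8% lower. Of 10 eIF3 genes 6 were lower and 3 higher. Eif4a2 turned from −0.20 to 0.17 and Eif3j1 from −0.26 to 0.29, and Eif4g3 was at −3.71.

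Eif4e was higher in polysomal RNA, with 35.5 to 84.8 CPM against 25.2 to 44.7 CPM in total RNA (0.86, SE 0.058, adjusted p = 4.74e-22). Of its repressors Eif4ebp1 was higher (0.53, SE 0.10) and Eif4ebp2 did not pass (−0.20, SE 0.12, adjusted p = 0.107). The value of Eif4ebp2 differed between settings. From sites near the gene end it was −1.26 (SE 0.072, adjusted p = 8.20e-26), within replicates 1 to 3 it was −0.72 (adjusted p = 6.39e-04), and within replicates 4 to 6 it was 0.28 (adjusted p = 0.0167). DESeq2 also called it lower (−0.29, adjusted p = 0.0167), as did edgeR with median-ratio size factors (−0.29, adjusted p = 0.0201). Eif4ebp3 was higher over all replicates (0.62, SE 0.19, adjusted p = 0.00225), but within replicates 4 to 6 it was at −0.12 with an adjusted p of 0.665. Among the eIF2 kinases Eif2ak2 was lower (−1.27, SE 0.15) and Eif2ak3 higher (0.50, SE 0.14), but Eif2ak3 was not called near the gene end (0.19, SE 0.22, adjusted p = 0.445) or within replicates 1 to 3 (0.34, adjusted p = 0.126). Eif2ak1 at −0.01 (SE 0.087) and Eif2ak4 at −0.28 (SE 0.15) did not pass. Without polysomal replicate 1, which carried the lung transcripts, 47 members were called, 46 of them the same. The call lost was that of the repressor Eif4enif1, which was not called within replicates 4 to 6 either.

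In Bmal1-/- livers the members' calls leaned upwards, and the changes were small. Of 53 members 21 were higher and 5 lower than in wild-type total RNA, with 44.2% of all 12082 genes called, 21.7% higher and 22.4% lower. The median difference was 0.07 for members and −0.00075 for all genes. Among eIF3 genes 8 of 14 were higher (Eif3e 0.48, Eif3a 0.41, Eif3f 0.32, and Eif3c, Eif3g, Eif3h, Eif3i and Eif3l by 0.14 to 0.29), and Eif3j1 was lower (−0.23). Eif2b3, Eif2b4 and Eif2b5 of eIF2B were higher, and so were 3 of 4 repressors. Neither Eif5a (0.05) nor Eif6 (−0.08) passed. Within replicates 1 to 3 23 members were called, 17 of them among these 26, and within replicates 4 to 6 18 were called, 14 of them among these 26. Eif3a (0.19, adjusted p = 0.163), Eif3f (0.21, adjusted p = 0.0566), Eif3c and Eif3g were not called within replicates 4 to 6, nor Eif3i, Eif3l and Eif3j1 within replicates 1 to 3. Eif2b3 was called within neither set of replicates, and Eif2b5 not within replicates 4 to 6. From sites near gene ends 15 of 38 members were higher and 3 lower. Of all 7032 genes tested in this way 1399 were higher and 1424 lower. Eif2b3 (0.14, adjusted p = 0.174), Eif2b5 (0.07, adjusted p = 0.249), Eif3c and Eif3j1 were not called from these sites.

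Eif4e3, a relative of the cap-binding protein, fell the most. It had 4.39, 8.54 and 17.9 CPM in wild type and 2.64, 4.26 and 6.97 CPM in Bmal1-/- RNA, with overlap (−1.08, SE 0.099, adjusted p = 1.09e-14), and it was lower at all 6 times. Its annotation (chr6:99621879-99692873) overlaps that of Gpr27, and the strand used in counting is not given in the sources used here. Eif1a had 20.4, 36.1 and 64.3 CPM in wild type and 37.1, 56.2 and 78.0 CPM in Bmal1-/- RNA, with overlap (0.56, SE 0.065, adjusted p = 6.26e-11). Eif3e rose from 40.1, 63.6 and 96.2 CPM to 58.5, 90.4 and 135 CPM, also with overlap (0.48, SE 0.052, adjusted p = 2.92e-12).

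Eif4b, which stimulates the helicase, was 0.42 higher (SE 0.061), Eif2b4 0.35 higher (SE 0.076) and Eif4enif1, a protein that binds Eif4e and represses its mRNAs, 0.31 higher (SE 0.066). Eif4e itself was at 0.04 (SE 0.051, adjusted p = 0.571). Eif4ebp1 rose by 0.40 (SE 0.12, adjusted p = 0.00479) and Eif4ebp2 by 0.22 (SE 0.078, adjusted p = 0.0167). Both were higher at 5 of 6 times, but neither was called within replicates 1 to 3, where Eif4ebp1 was at 0.11 (adjusted p = 0.537) and Eif4ebp2 at 0.01 (adjusted p = 0.945). Within replicates 4 to 6 they were at 0.59 (adjusted p = 0.00761) and 0.49 (adjusted p = 1.12e-05). Eif4ebp3 did not pass (−0.26, SE 0.20, adjusted p = 0.291). Both Eif4ebp3 and Eif4e were called when replicates 4 to 6 were taken alone. Counted near the gene end, Eif4ebp2 was at −0.08 (adjusted p = 0.455). Eif2ak1 was 0.15 lower on the log2 scale (SE 0.053, adjusted p = 0.0153), and the other 3 eIF2 kinases lay between −0.06 and 0.17 without passing. When replicates 1 to 3 were taken alone, Eif2ak1 was not called and Eif2ak2 was. Without total RNA at ZT2, replicate 4, 25 members were higher and 5 lower. The added calls were Eif2ak2, Eif2s1, Eif4a3 and Eif4g3.

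Daily cycles were tested with a cosine and a sine of 24 h in each series. In total RNA 9 of 53 members were called, 17.0%, with 18.9% of all 11964 genes called. In nuclear RNA 3 of 51 members were called (5.99% of all genes), in polysomal RNA 4 of 53 (7.9% of all genes), and in Bmal1-/- RNA 0 of 53 (0.00825% of all genes). In Bmal1-/- RNA edgeR gave 2 members an unadjusted p under 0.05 and DESeq2 gave 4 and called 0. These shares of members were near those of all genes.

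Eif4ebp3, the third of the Eif4e repressors (chr18:36664060-36666324), had its peak in the dark phase in wild-type total RNA. The 6 libraries at ZT6 held 7.23 to 24.1 CPM with a mean of 13.3 ± 6.88 (SD, n = 6), and those at ZT18 held 29.6 to 185 CPM with a mean of 92.4 ± 57.7, without overlap. The means at ZT2, ZT10, ZT14 and ZT22 were 16.3, 27.9, 51.4 and 24.5 CPM. The fitted peak-to-trough ratio was 6.27 (2.65 on the log2 scale, SE 0.34, adjusted p = 3.03e-06) with a peak at ZT16.5. Taken alone, replicates 1 to 3 (2.92) and replicates 4 to 6 (2.48) each gave a call.

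**Figure D2:**
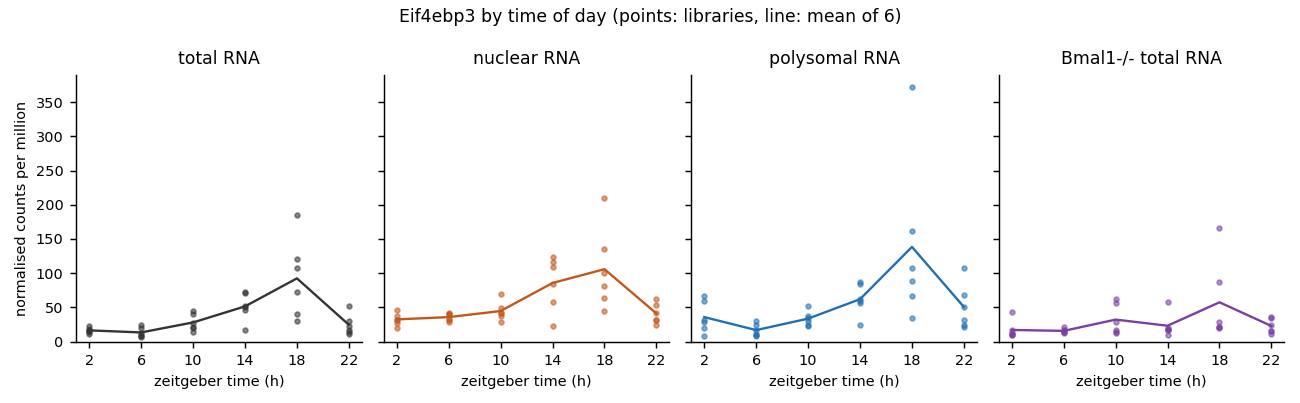
Normalised CPM of Eif4ebp3 (vertical axis) against zeitgeber time in hours (horizontal axis) in total, nuclear, polysomal and Bmal1-/- total RNA, with 1 point per library and a line through the means of 6. The wild-type series rise to means of 92.4, 106 and 138 CPM at ZT18, and the Bmal1-/- mean of 57.4 CPM at ZT18 rests on libraries at 166 and 87.5 CPM.

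The cycle of Eif4ebp3 was present in the nucleus and on polysomes. Nuclear means went from 32.4 ± 8.70 CPM at ZT2 to 106 ± 59.4 at ZT18, where libraries ran from 45.1 to 209 CPM (ratio 3.28, 1.71 on the log2 scale, SE 0.25, adjusted p = 3.15e-05, peak at ZT16.0). Polysomal means went from 16.7 ± 8.44 CPM at ZT6 to 138 ± 122 at ZT18, where 1 library of 372 CPM stood above the others at 33.9 to 161 CPM (ratio 5.61, 2.49 on the log2 scale, SE 0.40, adjusted p = 2.04e-04, peak at ZT17.9). Without replicate 1, which held that library, the polysomal value was 2.06 with an adjusted p of 0.00674, and within replicates 4 to 6 it was 2.15 with an adjusted p of 0.0531. The rhythm did not differ from that of total RNA in the nucleus (difference 0.96 on the log2 scale, SE 0.43, adjusted p = 0.9997) or on polysomes (0.95, SE 0.55, adjusted p = 0.967) by more than the spread of the libraries. Of the 11864 and 11556 genes tested for a difference in rhythm, 0% were called in either fraction, and 0 of 53 members (1 and 3 at an unadjusted p under 0.05, and by DESeq2 1 and 4, with 0 called).

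In Bmal1-/- livers the libraries of Eif4ebp3 disagreed at ZT18, where 4 libraries held 19.1 to 29.2 CPM and the other two held 87.5 and 166 CPM. The fitted ratio was 2.85 (1.51 on the log2 scale, SE 0.47, unadjusted p = 0.00975, adjusted p = 0.9999), with a peak at ZT16.3. The difference from the wild-type rhythm was 1.12 (SE 0.57, adjusted p = 0.483), which does not show a difference between genotypes for this gene.

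The remaining cycles in total RNA had peak-to-trough ratios of 1.26 to 1.54. Eif1a had means from 26.7 ± 5.40 CPM at ZT10 to 45.8 ± 7.70 at ZT2 and a ratio of 1.54 (adjusted p = 0.0148, fitted peak at ZT21.1), with the 6 libraries at ZT10 between 20.4 and 34.8 CPM and those at ZT2 between 35.5 and 53.8 CPM. Eif2b3, a subunit of the exchange factor eIF2B, had means from 6.98 ± 0.839 CPM at ZT2 to 10.7 ± 1.46 at ZT14 (ratio 1.46, adjusted p = 0.00511, peak at ZT14.7). Its libraries held 5.57 to 7.98 CPM at ZT2 and 8.99 to 13.4 CPM at ZT14, without overlap.

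Eif2b3 cycled in nuclear RNA as well (ratio 1.73, adjusted p = 0.0398, peak at ZT14.8), and so did the helicase stimulator Eif4b (1.43, adjusted p = 0.0279, peak at ZT9.4), which in total RNA had a ratio of 1.34 and a peak at ZT10.5. The helicase Eif4a1 had a ratio of 1.34 with a peak at ZT15.0, the scaffold Eif4g2 1.26 at ZT17.5, Eif2s3x 1.41 at ZT20.4 and the start codon factor Eif1 1.29 at ZT10.1. The members thus peaked at several times of the day. Eif4e (ratio 1.21, adjusted p = 0.107), Eif4ebp1 (1.40, adjusted p = 0.166) and Eif4ebp2 (1.32, adjusted p = 0.221) did not pass in total RNA, and none of the 4 eIF2 kinases did (ratios 1.16 to 1.57). Within replicates 1 to 3 and within replicates 4 to 6, 1 of these 9 genes was called, Eif4ebp3. Without the 1 total RNA library high in Xist (ZT22, replicate 5), Eif2s3x, Eif4b and Eif1 were no longer called. The nuclear cycles of Eif2b3 and Eif4b were not called within replicates 1 to 3 or 4 to 6, nor with time as 6 levels.

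On polysomes Eif3f, Eif1b and Eif5a cycled beside Eif4ebp3. Of the 9 tested members with an E-box in the window these 3 were called on polysomes and 6 were not, where 7.9% of all genes were called. In total RNA 2 were called (Eif1b and Eif4a1) and 7 were not, where 18.9% of all genes were called. In nuclear and in Bmal1-/- RNA 0 of 9 were called (5.99% and 0.00825% of all genes). Cycles of all genes with an E-box were not compared, so a link between motif and cycle was not tested. Eif3f, a subunit of eIF3, had 18.1 to 31.9 CPM at ZT6 and 27.7 to 117 CPM at ZT18 (means 25.1 ± 5.32 and 55.2 ± 31.6, n = 6), with overlap. Its ratio was 2.02 (1.02 on the log2 scale, SE 0.22, adjusted p = 0.00491) with a peak at ZT16.5, while in total RNA it was 1.18 (adjusted p = 0.361). The 117 CPM came from replicate 1, and without that replicate the value was 0.78 with an adjusted p of 0.0434. Eif5a had 362 to 688 CPM at ZT6 and 763 to 1242 CPM at ZT18, without overlap (means 525 ± 126 and 958 ± 177), and a ratio of 1.65 (adjusted p = 0.0185, peak at ZT19.2). In total RNA its ratio was 1.26 (adjusted p = 0.0966). The polysomal cycle of Eif5a was not called within replicates 1 to 3 or within replicates 4 to 6. Those of Eif3f and Eif1b were not called within replicates 1 to 3. With time as 6 levels, Eif3f, Eif1b and Eif5a were not called on polysomes. For none of these genes did the test find the polysomal rhythm different from that of total RNA.

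**Figure D3:**
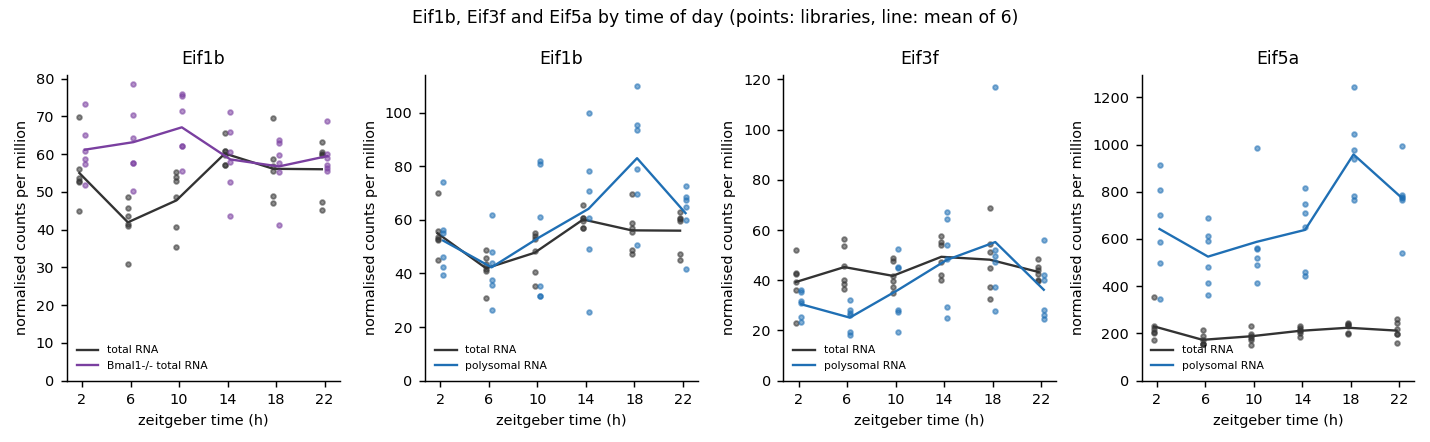
Normalised CPM (vertical axes) against zeitgeber time in hours (horizontal axes) of Eif1b in total and Bmal1-/- total RNA, and of Eif1b, Eif3f and Eif5a in total and polysomal RNA, with 1 point per library and lines through the means of 6. Eif1b in wild-type total RNA dips to 41.9 CPM at ZT6, where the Bmal1-/- mean is 63.2 CPM, and polysomal Eif5a reaches 958 CPM at ZT18.

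Eif1b, a close relative of the start codon factor Eif1 (chr9:120492606-120495327), was the only member called for a difference in cycle between genotypes. This was 1 of 53 members (9 at an unadjusted p under 0.05 by edgeR), with 5.11% of all 12082 genes called. In wild type the libraries held 30.8 to 48.8 CPM at ZT6 and 57.0 to 65.7 CPM at ZT14, without overlap, with means of 41.9 ± 6.16 and 60.2 ± 3.19 (SD, n = 6). In Bmal1-/- RNA they held 50.3 to 78.7 CPM at ZT6 and 43.5 to 71.3 CPM at ZT14, with means of 63.2 ± 10.2 and 58.6 ± 9.82. The genotypes did not overlap at ZT6 and overlapped at ZT14. The wild-type cycle had a ratio of 1.33 (0.41 on the log2 scale, SE 0.11, adjusted p = 0.0169, peak at ZT18.7).

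In Bmal1-/- RNA the ratio of Eif1b was 1.14 (adjusted p = 0.9999), and the difference of the cycles was 0.59 (SE 0.14, adjusted p = 0.0174). Within replicates 1 to 3 the difference was 0.35 (adjusted p = 0.441) and within replicates 4 to 6 it was 0.84 (adjusted p = 0.151), so neither set of replicates called it alone. On polysomes Eif1b had means from 42.3 ± 12.1 CPM at ZT6 to 83.1 ± 21.2 at ZT18 (ratio 1.73, adjusted p = 0.0291), a call that was lost without replicate 1 (0.65 on the log2 scale, adjusted p = 0.127).

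The use of polyadenylation sites was compared as the share of each site in its gene's site counts. Between nuclear and total RNA 72 of 93 member sites in 29 of 31 genes were called (78.6% of all 11695 sites tested), and between polysomal and total RNA 83 of 109 sites in 33 of 35 genes (70.5% of 12406 sites). Beside Eif4a2, the largest nuclear shifts were in Eif3e, Eif2s2, Eif3a and Eif2s3x. In Eif3e a site 1444 bp before the gene end (chr15:43251484-43251611) went from 88.6% ± 5.70 to 44.9% ± 21.3, with most of the rest at a site 93 bp from the gene start. In Eif2s2, which encodes the beta subunit of eIF2, a site 119 bp from the gene start (chr2:154892689-154892787) held 47.4% ± 7.60 in total RNA and 79.5% ± 5.93 in nuclear RNA.

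**Figure D4:**
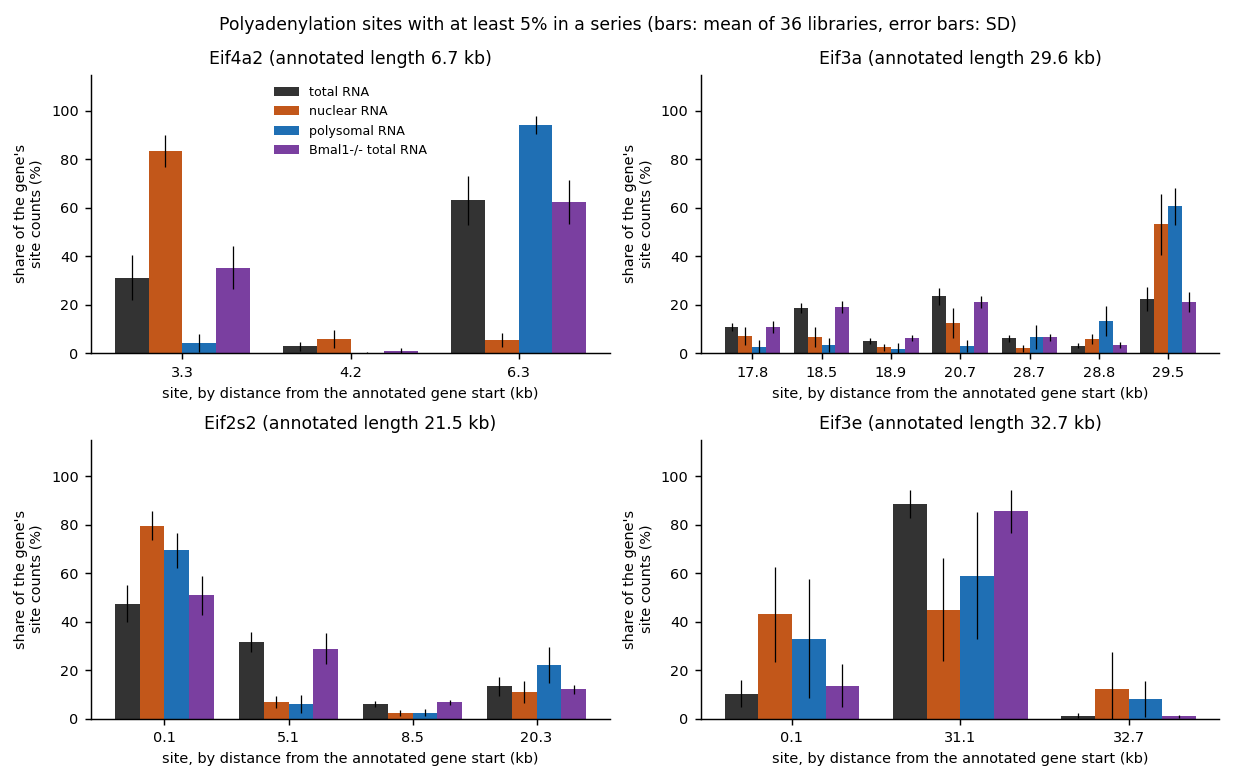
Share of each polyadenylation site in its gene's site counts in percent (vertical axes) for Eif4a2, Eif3a, Eif2s2 and Eif3e, with sites ordered by distance from the annotated gene start in kb (horizontal axes). Bars are means of 36 libraries with SD, for sites of at least 5% in a series. The site inside Snora81 holds 83.5% of Eif4a2 in nuclear RNA, and the end site holds 94.1% in polysomal RNA.

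On polysomes the last sites of Eif3a and Eif4a2 gained in share. The largest shift after Eif3a was in Eif4e2, a cap-binding protein that represses translation, where a site 12410 bp before the gene end fell from 63.5% ± 5.73 to 29.4% ± 12.3. In Eif4enif1 a site 16725 bp before the end fell from 61.1% ± 11.5 to 28.0% ± 17.98, and in Eif3e the site 1444 bp before the end fell from 88.6% to 59.0% ± 26.3. All 5 of these differences were in the same direction at all 6 times.

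Between genotypes site use changed less. In Bmal1-/- RNA 16 of 110 sites in 10 of 36 genes were called, with 8.86% of all 13228 sites called. The end site of Eif4ebp2 went from 38.8% ± 13.6 to 28.9% ± 11.3 (adjusted p = 0.0184), and a site of Eif4e 2778 bp before the gene end from 43.4% ± 5.38 to 37.5% ± 7.21 (adjusted p = 0.0170), while a site 3228 bp before that end was higher, 38.4% ± 7.33 against 33.9% ± 4.95. Sites of Eif2b4 (45.8% to 38.0%), Eif1ax (27.8% to 22.9%) and Eif3j2 (47.3% to 55.2%) were also called. Taken alone, replicates 1 to 3 did not call the sites of Eif3j2 (−0.11 on the log2 scale, adjusted p = 0.406) and Eif2b4 (−0.24, adjusted p = 0.0738), and replicates 4 to 6 did not call those of Eif4e (−0.06, adjusted p = 0.621) and Eif1ax (−0.19, adjusted p = 0.0572). The library of total RNA at ZT2, replicate 4, had 81.1% at the Eif4ebp2 end site and 93.8% at that of Eif2b4, against at most 69.7% and 58.3% in the other wild-type libraries, and 6.08% at the Eif2s2 site near the gene start, where the others had at least 43.3%. Without this library 17 member sites were called between genotypes, 15 of them among the 16, and the named sites kept their calls.

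A daily cycle in site use was called for 2 of 112 member sites, both in Eif5, with 0.348% of all 12930 sites called. The site 138 bp before the end of Eif5 (chr12:111546393-111546615) held 28.8% ± 2.28 at ZT10 and 21.8% ± 3.90 at ZT22 (SD, n = 6, adjusted p = 0.0307). The site 1819 bp before the end ran the other way, with 4.81% ± 0.939 at ZT10 and 7.90% ± 0.737 at ZT22 (adjusted p = 0.0311). At ZT10 the libraries held 3.95% to 6.51% there and at ZT22 7.19% to 9.16%, without overlap. Neither site was called within replicates 1 to 3 or within replicates 4 to 6.

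Eif2s3x and Eif2s3y encode near-identical gamma subunits of eIF2 on the X and Y chromosomes, so reads of 1 may have been counted for the other. In the libraries high in Xist, Eif2s3y had 1, 0 and 0 counts in total, nuclear and polysomal RNA but 125 counts in Bmal1-/- RNA, and Eif2s3x in the total RNA library was the highest of its series at 53.6 CPM, with the next at 37.8 CPM. The cycle of Eif2s3x in total RNA (adjusted p = 0.0438) was not called without that total RNA library (0.37 on the log2 scale, adjusted p = 0.137). Eif2s3y was higher in Bmal1-/- RNA with the libraries high in Xist (0.27, SE 0.097, adjusted p = 0.0184) and without them (0.23, SE 0.058, adjusted p = 7.11e-04). That rise was not called within replicates 4 to 6. In nuclear RNA both genes were lower with and without the libraries high in Xist (−0.72 and −0.66 for Eif2s3x, −1.04 and −0.999 for Eif2s3y). Over all members, 50, 47 and 27 were called without these libraries in the nuclear, polysomal and Bmal1-/- comparisons, against 50, 47 and 26 with them.

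**Figure D5:**
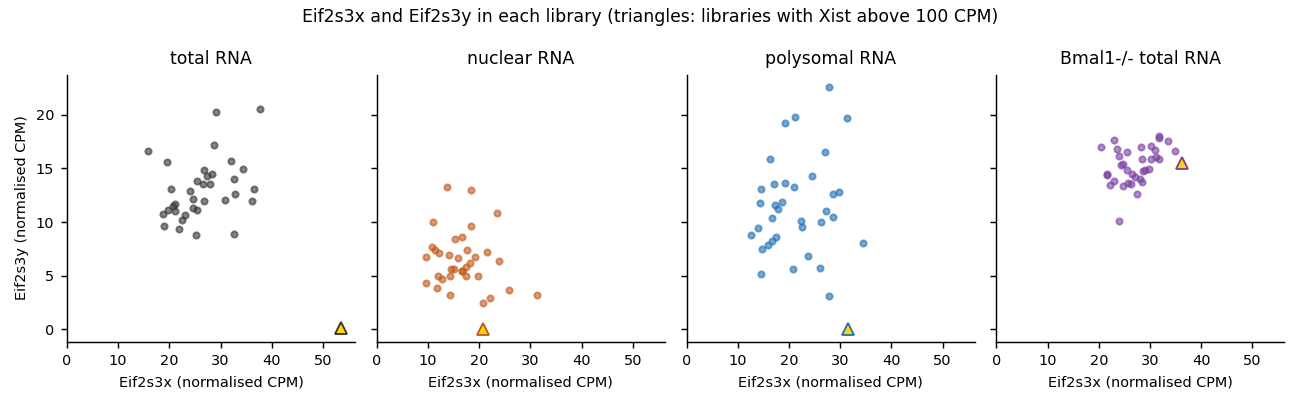
Normalised CPM of Eif2s3y (vertical axis) against Eif2s3x (horizontal axis) in each library of the 4 series, where triangles mark libraries with Xist above 100 CPM. The triangles of total, nuclear and polysomal RNA lie at or near 0 for Eif2s3y, and the triangle of Bmal1-/- RNA lies among the other libraries.

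The regulators upstream of eIF4F were described through a list of 24 genes of mTOR signalling and mRNA binding. In nuclear RNA 10 were higher and 10 lower, 83.3% called against 83.8% of all genes, among them the helicase inhibitor Pdcd4 (−1.70, SE 0.099) and the poly(A)-binding proteins' relative Pabpc4 (1.16, SE 0.095). In polysomal RNA 7 were higher and 13 lower, 83.3% called against 76.1% of all genes, with the S6 kinase Rps6kb2 at −2.73 (SE 0.35), the TOP-binding protein Larp1 at −1.42 (SE 0.11) and the mTOR activator Rheb at 1.22 (SE 0.11). Rps6kb2 averaged 50.6 counts over both series at a polysomal to total ratio of 0.15, so its test is not taken as support. By the polysomal libraries alone 23 of the 24 genes passed the count minimum. Between genotypes 5 were higher and 6 lower in Bmal1-/- RNA, 45.8% called against 44.2% of all genes. Mknk2, a kinase that phosphorylates Eif4e, was 0.84 lower on the log2 scale (SE 0.083, adjusted p = 2.29e-13) and Pabpc1 0.33 higher (SE 0.079).

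In total RNA 8 of these 24 genes cycled, 33.3% against 18.9% of all genes. The mTOR inhibitor Ddit4 had a ratio of 4.08 with a peak at ZT19.8, Mknk2 of 2.08 at ZT12.7 and Pdcd4 of 1.82 at ZT4.7. In Bmal1-/- RNA 0 did, and the rhythm differed between genotypes for 3 (12.5% against 5.11% of all genes), namely Mknk2 (adjusted p = 0.0122), Larp1 (adjusted p = 0.0174) and Pdcd4 (adjusted p = 0.00805). The list was chosen with earlier results of these data known, so its shares are not taken as support.

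Downstream of the eIF2 kinases, a list of 20 symbols of the integrated stress response and the ternary complex was used, of which 19 were in the table and 15 or 16 passed the count minimum in the comparisons of series. In polysomal RNA 7 were higher and 5 lower, 75.0% called against 76.1% of all genes, with the transcription factor Atf4 at −0.98 (SE 0.076), the ribosome recycling factor Denr at −0.97 (SE 0.086) and Atf5 at 0.62 (SE 0.12). In nuclear RNA 6 were higher and 7 lower, 86.7% called against 83.8% of all genes, led by Gcn1l1, an activator of Eif2ak4 (2.22, SE 0.087). Between genotypes 3 were higher and 3 lower in Bmal1-/- RNA, 37.5% called against 44.2% of all genes, with Atf5 at 0.62 (SE 0.089, adjusted p = 2.70e-08). In total RNA 8 of 16 cycled, 50% against 18.9% of all genes, among them Atf5 (ratio 2.43, peak at ZT0.1), Ddit3 (2.00, ZT17.6) and Atf4 (1.42, ZT22.6). None of 15 did in Bmal1-/- RNA (1 at an unadjusted p under 0.05). The rhythm differed between genotypes for 4 of 16 (25.0% against 5.11% of all genes), Atf5 (adjusted p = 0.0221) and Atf4 (adjusted p = 0.0312) among them. This list too was chosen with earlier results of these data known, so its shares are not taken as support.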

How the data were processed

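QuantSeq 3′ counts of 3 wild-type RNA fractions and of Bmal1-/- total RNA were used as the authors deposited them, as raw counts per gene and per polyadenylation site. The submitters' processing notes name STAR 2.4.2a, HOMER, edgeR, mm10 and GRCm38.p5, and the counting strand is not given in the sources used here. The authors' deposited list of filtered sites gave positions and strands, and its score column, a placeholder, was not used. A site went to the gene whose GRCm38.p6 RefSeq span, extended 1000 bp past the gene end, held it alone, and genes whose sites summed to under 0.3 or over 1.5 of the gene count were dropped. From the counts, R 4.3.3 and edgeR 4.0.16 (quasi-likelihood test, trimmed mean of M values, a mean of at least 10 counts, Benjamini-Hochberg adjustment over all genes at 0.05) gave levels, 24 h rhythms and, for sites of at least 5% in genes of at least 50 counts, site use. Alternatives were DESeq2 1.42.0, median-ratio size factors, other minimums, a replicate block, replicates 1 to 3 and 4 to 6 alone, time as 6 levels and libraries left out. The scripts were tested on simulated data. Named were the 8 largest called members of each comparison with a mean of at least 50 counts (for levels, in 1 direction at all 6 times), Eif4e, Eif4ebp1 to Eif4ebp3 and the eIF2 kinases, and the largest site shift in up to 5 genes. Other genes named were chosen after their values were seen. The members and lists were chosen with earlier results of these data known.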

Additional observations from a re-analysis of the deposited data

Results flagged for a closer look

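In 72 groups of 6 libraries, 5 held a library whose gap to its neighbour exceeded Dixon's 95% critical value, and chance flags about 1 in 20 groups. They were Eif1a in total RNA at ZT6, replicate 2 (41.1 CPM, next 32.6), Eif3f in polysomal RNA at ZT18, replicate 1 (117 CPM, next 52.1), Eif4ebp3 in Bmal1-/- RNA at ZT2, replicate 1 (43.5 CPM, next 16.2) and at ZT14, replicate 1 (57.6 CPM, next 20.4), and Eif1b in Bmal1-/- RNA at ZT22, replicate 5 (68.8 CPM, next 60.0). The rhythm of Eif1b differed between genotypes (adjusted p = 0.0174 by edgeR's interaction test).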

How the results depend on the processing

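Replicate numbers are not stated to mark a shared animal, and same-numbered libraries did not always deviate together (mean correlation 0.34 for total and nuclear, −0.13 for total and polysomal, 0.07 for total and Bmal1-/-). The correlation exceeded 0.1 in 34, 1 and 18 of 36 pairs, and 29, 0 and 14 libraries correlated best with their own number, a hint from the data and not from the design. Within a series, libraries of the same number at different times had mean correlations of 0.30 (total), 0.23 (nuclear), 0.27 (polysomal) and 0.23 (Bmal1-/-). With a replicate block, members called went from 9 to 16 for rhythms in total RNA and from 4 to 8 in polysomal RNA. The calls gained were Eif3b, Eif3j1, Eif3j2, Eif3l, Eif4ebp2 (adjusted p = 0.00625), Eif4g1 and Eif5a in total RNA and Eif1ad, Eif1ax, Eif3a and Eif4e2 in polysomal RNA. Counts went from 50, 47 and 26 to 50, 48 and 29 for nuclear, polysomal and Bmal1-/- levels. Within replicates 1 to 3 and within replicates 4 to 6, rhythm calls were 2 and 1 in total RNA and 1 and 1 in nuclear RNA (3 with all), 1 for replicates 1 to 3 in polysomal RNA, 0 and 0 for the genotype difference (1 with all) and 0 and 0 for site use rhythms (2 with all). With time as 6 levels, 4, 1 and 1 rhythms were called in total, nuclear and polysomal RNA. Site use rhythms fell to 1 with sites of at least 10% and to 1 without the total RNA library high in Xist, and nuclear site use from 72 to 42 with genes of at least 200 counts, where fewer sites were tested. Counted near gene ends, chosen after seeing the data as were the settings without single libraries, 32 members were called in nuclear RNA, where 37 were tested. Directions turned near gene ends for Eif4a2 (nuclear, −0.77), Eif4ebp2 (Bmal1-/-, −0.085) and, as the report gives, Eif3a, Eif4g1, Eif2b3, Eif4g3 and Eif4a1 (nuclear) and Eif4a2 and Eif3j1 (polysomal), and in sign without a call for Eif3d (0.06) and Eif3k (0.01) in nuclear RNA. They also turned within replicates 4 to 6 for Eif4ebp2 (0.28) and Eif4ebp3 (−0.12) on polysomes, and within replicates 1 to 3 for the Eif3j2 site in Bmal1-/- RNA (−0.11). The cause was not tested. Of 1121 values of named genes and sites under the alternatives, 1044 kept direction and side of the threshold.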
